A study of Mus musculus with 8 samples.

Results

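The genes described are 10 signals and modulators of the transforming growth factor beta (TGF-beta) superfamily, measured in *Bapx1*-EGFP positive cells of the embryonic mouse spleen. They comprise the ligands *Tgfb1*, *Tgfb2*, *Tgfb3* and *Inhba*, the receptors *Tgfbr2* and *Tgfbr3*, the extracellular antagonists *Fst* and *Grem1*, the pseudoreceptor *Bambi* and the inhibitory Smad *Smad7*. All probes that the platform annotation assigns to these symbols were taken, which gave 14 of the 45281 probes on each array, 4 of them for *Tgfbr2*, 2 for *Tgfbr3* and 1 for each other gene. Of the 10 genes, 6 were bright enough to be tested, and *Tgfb1*, *Fst*, *Bambi* and *Smad7* were not.

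The series holds 4 samples labelled *Bapx1* null and 4 labelled *Bapx1* wildtype, each on 1 array of the MouseWG-6 BeadChip type, which carries bead-bound probes read in a single colour. Which arrays shared a chip is not given, so a chip effect was not tested. All were EGFP positive cells sorted by FACS from dissected E12.5 spleens of the strain C57BL/6J;129. Null embryos were homozygous for the allele that carries EGFP directly behind the start codon (*Bapx1* tm4.Tlu/tm4.Tlu), and wildtype embryos carried EGFP read from an IRES placed in the 3' UTR of an intact *Bapx1*, a genotype that the paper writes as heterozygous (*Bapx1* +/tm2.Tlu). In both genotypes the endogenous *Bapx1* promoter drives EGFP, so the reporter allele and its copies change together with the loss of *Bapx1*, and their effects cannot be told apart. The number of embryos in a replicate is not given. The comparison asks which of these signalling genes differ with *Bapx1* genotype in the cells of the spleen primordium.

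TGF-beta ligands are secreted in a latent form, are released in the extracellular matrix, and bind a type II receptor that then activates a type I receptor. The activated type I receptor phosphorylates receptor Smads, which enter the nucleus with the common Smad and change transcription. Activins and bone morphogenetic proteins (BMPs) use related receptors, and secreted antagonists such as follistatin and gremlin hold these ligands away from them. In mesenchymal organs this superfamily is known for its part in matrix deposition, smooth muscle differentiation and the patterning of the organ primordium.

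Short promoter sequences are shown because the Smad box is the element known to be bound by effectors of the pathway itself. Promoter windows of 300 bases (250 before and 50 after the gene start, RefSeq, GRCm38.p6) were matched by symbol for 5 of the 10 genes, *Tgfb1*, *Tgfb2*, *Tgfbr2*, *Inhba* and *Grem1*. The Smad box CAGAC, bound by Smad3 and Smad4, was searched on both strands and stood in 3 of the 5 windows, against 49.6% of 32851 promoter windows of the same length. The longer palindrome GTCTAGAC stood in 0 of the 5 (0.213% of all windows), and the *Bapx1* motif (TGAGTG or TAAGTG, both strands) in 0 of the 5 (23.9% of all windows). A match is a description of letters and not of a bound site. The matches that lie upstream of the gene start with 10 bases on either side are given 5' to 3' on the gene's strand, with the Smad box in capitals.
*Tgfb2*, chr1:186706196-186706220, minus strand: cctccacacaCAGACccttggtgat
*Tgfb2*, chr1:186706179-186706203, minus strand: ttggtgatcaCAGACagtgactact
*Tgfbr2*, chr9:116175509-116175533, minus strand: acttggagccCAGACttggcggggt
*Grem1*, chr2:113758853-113758877, minus strand: ctctcccaccCAGACgggcaggggc

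Across the arrays, 19019 to 19681 probes were detected above background on null arrays and 19267 to 20152 on wildtype arrays, and the mean signal was 302.4 to 398.1 on null and 361.7 to 472.5 on wildtype arrays. With 4 arrays per genotype, their number limits how precise a difference can be. Of 10766 genes tested, 4819 (44.8%) differed between the genotypes at an adjusted p under 0.05 (limma, Benjamini-Hochberg over all genes), so a call on a single gene is common in this comparison. Of all genes, 27% were higher and 17.7% lower in null cells, in 40.2% the 4 arrays of 1 genotype all lay above those of the other, and the median log2 difference was 0.09. The targeted gene *Bapx1*, listed as *Nkx3-2*, was detected on 4 of 4 null arrays and on 0 of 4 wildtype arrays at both of its probes, ILMN_2687592 and ILMN_2687594, at least 3.79-fold and 2.99-fold higher in null. In the other direction, the paper reports from in situ hybridization that *Bapx1* expression is lost in the null spleen. For the vertebral column, another tissue, it states that *Bapx1* was upregulated in null embryos. Why neither probe was above background in wildtype cells, which were sorted for a reporter at this locus, was not tested. The null allele keeps most of the transcribed sequence and the probe positions were not used here. The 2 probes therefore do not check the labels, and directions below are those of the libraries labelled null and wildtype. Of the spleen anlage markers, *Nkx2-5*, *Nkx2-3*, *Barx1* and *Tcf21* were detected on all 8 arrays and *Tlx1* on none. The homeobox gene *Nkx2-5*, which regulates spleen growth, was lower in null, at 6.66 ± 0.36 against 8.97 ± 0.29 in wildtype cells (SD, n = 4), a log2 difference of -2.31 (adjusted p = 5.26e-05, limma). *Nkx2-3* was also lower (-0.70, adjusted p = 0.00056, limma), while *Barx1* was higher in null (1.47, adjusted p = 0.000168, limma). *Tcf21* and *Nr2f2* did not pass (0.05 and 0.425, adjusted p = 0.737 and 0.0821, limma), so the markers did not share 1 direction.

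Of the 6 genes tested, 3 were higher in null cells (*Tgfb2*, *Tgfb3* and *Inhba*), 1 was lower (*Tgfbr3*), and *Tgfbr2* and *Grem1* did not pass. The 3 that were higher are the only ligands of the set that were tested, with *Inhba* near background in wildtype cells. The 1 that was lower is a coreceptor, so this split by role rests on few genes. The median log2 difference of the 6 was 0.51, against 0.09 for all genes. The groups did not overlap in the 4 genes that passed, and *Tgfb2*, *Tgfb3* and *Tgfbr3* were also over 2-fold apart, as were 8.02% of all genes. Counted by probe, 4 of the 6 probes of the set that were kept passed without overlap, where 41.9% of all 19841 kept probes passed and 38.3% did not overlap. Values are given as background-subtracted signals, and as log2 intensities after normalization between arrays. Levels of different probes are not set against each other. In sorted bulk cells, a change in the cells that carry a transcript and a change in the transcript per cell cannot be told apart.

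**Figure D1:**
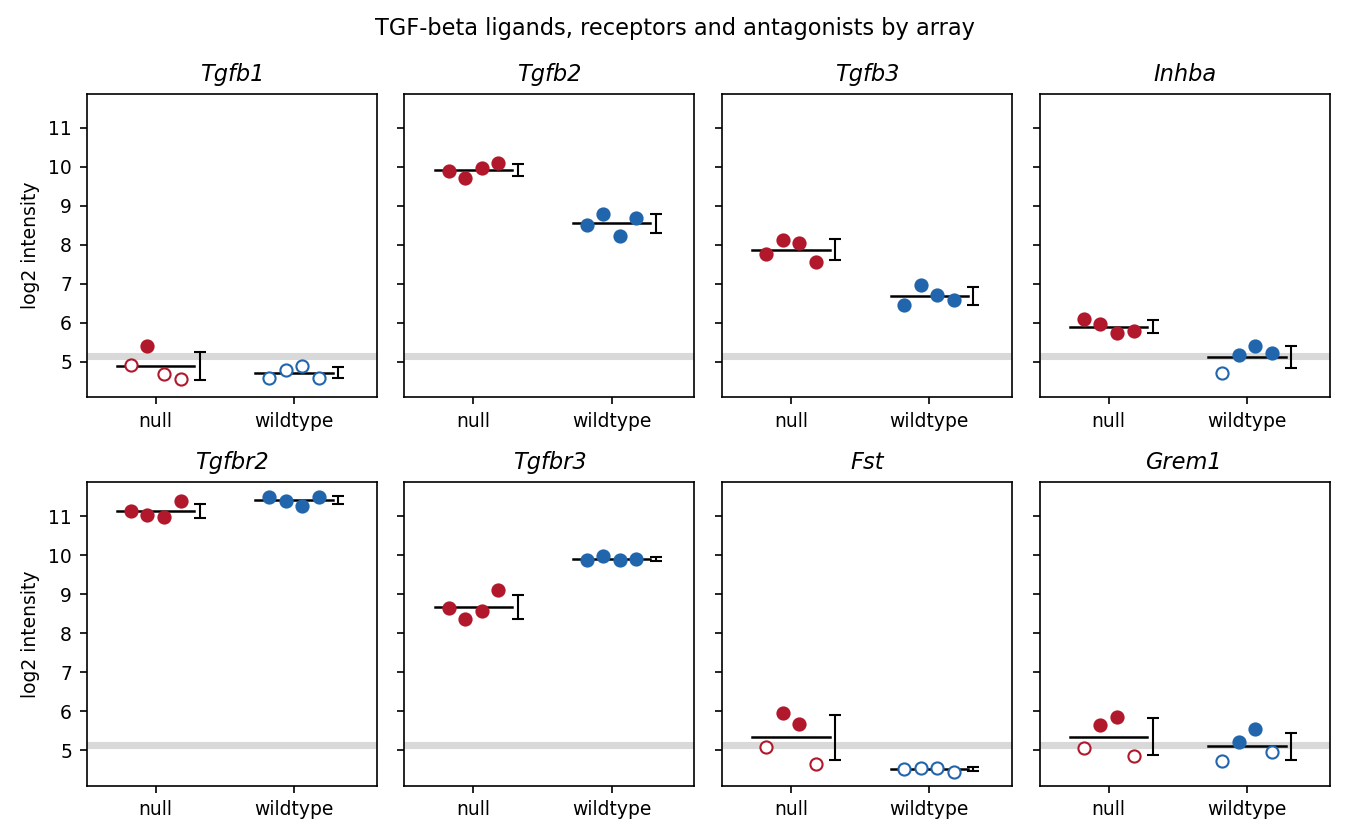
Normalized log2 intensity (y axis) of the 8 genes whose probe could be read on every array, in null (red, left) and wildtype (blue, right) samples, for the probe with the highest intensity of each gene. Each point is 1 array, filled where the probe was detected and open where it was not, lines are means, bars are SDs (n = 4) and the grey band spans the lowest detected values of the 8 arrays. *Tgfb2*, *Tgfb3*, *Inhba* and *Tgfbr3* separate the genotypes, *Fst* is detected on 2 null arrays alone, and the genotypes overlap for *Tgfb1* and *Grem1*, whose values lie between 4.57 and 5.85.

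*Tgfb2*, a TGF-beta ligand needed for the formation of several embryonic organs, had the clearest difference of the set. Its signal (ILMN_1225196) was 700.5, 843.3, 876.4 and 1097.5 on null replicates 1 to 4, against 448.3, 397.6, 307.5 and 427.7 on wildtype replicates 1 to 4. Every null array lay above every wildtype array. After normalization the log2 intensity was 9.92 ± 0.16 in null and 8.56 ± 0.25 in wildtype cells (SD, n = 4), a log2 difference of 1.36 (SE 0.14, 95% interval 1.06 to 1.67) or a 2.57-fold higher level, with an adjusted p of 0.000129 in limma. Placed by its absolute moderated t, *Tgfb2* stood at rank 236 of the 10766 genes. It kept its call under each of the 21 other settings tried, with log2 differences of 1.23 to 1.95.

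The pattern of *Tgfb2* over the 8 arrays was shared most closely by *Fam162b*, *Pcdh20*, *Igf1*, *Tnfrsf19* and *Adgrg6*. *Pcdh20* encodes a protocadherin, *Igf1* a secreted growth factor, *Tnfrsf19* a receptor of the tumour necrosis factor family and *Adgrg6* an adhesion G protein-coupled receptor. The root mean square difference of their array-centred log2 values from those of *Tgfb2* was 0.12 for *Fam162b*, 0.12 for *Pcdh20*, 0.12 for *Igf1*, 0.13 for *Tnfrsf19* and 0.13 for *Adgrg6*. Their own log2 differences between null and wildtype cells ran from 1.19 for *Adgrg6* to 1.41 for *Tnfrsf19*. They were chosen for this likeness, so it carries no test.

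*Tgfb3*, the ligand of the same subfamily known for palate fusion, was also higher in null cells. Its signal (ILMN_2748966) was 146.4, 269.3, 211.6 and 170.9 on null replicates 1 to 4, against 95, 104.6, 95.6 and 90.3 on wildtype replicates 1 to 4. Before normalization the wildtype arrays lay close together and the null arrays spread more widely above them. After it the spread within each genotype was nearly alike. The log2 intensity was 7.88 ± 0.27 in null and 6.68 ± 0.23 in wildtype cells (SD, n = 4), a log2 difference of 1.19 (SE 0.16, 95% interval 0.84 to 1.54), 2.28-fold, with an adjusted p of 0.000536 in limma.

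*Tgfb1*, the ligand most studied in immune and connective tissue, was at background. Its signal (ILMN_2711461) was 9.6, 26.2, 5.1 and 0.5 on null replicates 1 to 4, against 3, 8.4, 11.9 and 2.7 on wildtype replicates 1 to 4. It was detected on null replicate 2 and on no other array, and the groups overlapped. In a fit without the filter on dim probes its log2 difference was 0.18 (SE 0.17, adjusted p = 0.472, limma), so no difference was detectable at this brightness.

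*Inhba* encodes the inhibin beta A chain, whose dimer is activin A. Its signal (ILMN_2868220) was 36.8, 47.7, 31.8 and 38.2 on null replicates 1 to 4, against 8.8, 19.5, 26.9 and 23.9 on wildtype replicates 1 to 4, where replicate 1 was not detected. All null arrays lay above all wildtype arrays, in a range where the wildtype values were near background. The log2 intensity was 5.90 ± 0.17 in null and 5.13 ± 0.29 in wildtype cells (SD, n = 4), a log2 difference of 0.77 (SE 0.15, 95% interval 0.44 to 1.11), 1.71-fold, with an adjusted p of 0.0037 in limma. The size of this difference moved with the background correction, to 0.44 with an offset of 50 and to 1.41 with none (SE 0.09 and 0.40, adjusted p = 0.00425 and 0.024, limma), and *Inhba* was left out where a detection p under 0.01 was asked of all arrays.

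*Tgfbr3* encodes betaglycan, a coreceptor that presents TGF-beta ligands, TGF-beta 2 above all, to the type II receptor, and that also binds inhibin. It was the 1 gene of the set lower in null cells. Its signal (ILMN_2789239) was 287.2, 319.2, 310.1 and 546.1 on null replicates 1 to 4, against 1167.1, 920.2, 998 and 998.8 on wildtype replicates 1 to 4. Null replicate 4 was the highest of its genotype and still lay below every wildtype array. The log2 intensity was 8.67 ± 0.31 in null and 9.91 ± 0.05 in wildtype cells (SD, n = 4), a log2 difference of -1.24 (SE 0.14, 95% interval -1.56 to -0.92), 2.36-fold lower, with an adjusted p of 0.000275 in limma. Its other probe (ILMN_2606601) was not above background on any array, with signals of -14.5 to -5.5 on null and 0.4 to 12.9 on wildtype arrays, and gave no second reading of the gene.

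*Tgfbr2* encodes the type II receptor that every TGF-beta ligand uses. Its signal (ILMN_2760979) was 1684.2, 2165.8, 1813.5 and 2762.7 on null replicates 1 to 4, against 3434.6, 2454.8, 2620.6 and 3006.9 on wildtype replicates 1 to 4. Null replicate 4 lay among the wildtype arrays. The log2 intensity was 11.13 ± 0.18 in null and 11.41 ± 0.11 in wildtype cells (SD, n = 4), a log2 difference of -0.28 (SE 0.11, 95% interval -0.52 to -0.04) with an adjusted p of 0.0594 in limma. The call turned on single arrays and settings: it passed without null replicate 4 (-0.37, adjusted p = 0.0115), without wildtype replicate 3 (-0.33, adjusted p = 0.0442) and with an offset of 50 (-0.28, adjusted p = 0.0457), all in limma. With median absolute deviation scaling its difference was 0.48 (adjusted p = 0.2), against a median of all genes of 0.43 under that scaling. The other 3 probes (ILMN_1215171, ILMN_1242086 and ILMN_2777917) were not above background on any array.

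Of the antagonists *Grem1* alone was tested, and it did not pass. *Grem1*, a secreted antagonist of BMP2, BMP4 and BMP7, had a signal (ILMN_1228522) of 12.1, 33.6, 35.1 and 10.5 on null replicates 1 to 4, against 8.8, 20.3, 31.2 and 15.2 on wildtype replicates 1 to 4. It was detected on replicates 2 and 3 of each genotype, and the genotypes overlapped throughout. The log2 intensity was 5.35 ± 0.47 in null and 5.11 ± 0.35 in wildtype cells (SD, n = 4), a log2 difference of 0.24 (SE 0.25, 95% interval -0.31 to 0.80) with an adjusted p of 0.439 in limma.

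*Fst* encodes follistatin, which binds activin nearly irreversibly. Its signal (ILMN_1228958) was 12.6, 46.1, 29.8 and 4.3 on null replicates 1 to 4, against -1, -0.3, 0.1 and -5.2 on wildtype replicates 1 to 4. It was detected on null replicates 2 and 3 and on no wildtype array, which was too few to enter the test. The log2 intensity was 5.34 ± 0.58 in null and 4.52 ± 0.05 in wildtype cells (SD, n = 4), without overlap, as in 29.7% of all genes when dim probes were kept. For other genes given as at least a fold higher, wildtype cells hold only a bound, with the lowest detected value of each array in place of a value below it. No such bound is given for *Fst*, because null replicates 1 and 4 were not above background either. In the fit without the filter on dim probes 30.8% of 15958 genes passed, 18.8% higher and 12% lower in null, and no difference of *Fst* is read from it.

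*Bambi*, a pseudoreceptor that lacks a kinase and damps the pathway, and *Smad7*, the inhibitory Smad that removes the type I receptor, were not above background on any array. The signal table names probes by bead address, and these probes could not be given 1 address. The 4 addresses that could be *Bambi* (ILMN_2774722) had signals of at most 2.8, on null replicate 2, and of at most 1 on the other 7 arrays. The 8079 that could be *Smad7* (ILMN_2759660) were at or below 1 on all 8 arrays. The lowest detection p among these addresses was 0.307 for *Bambi* and 0.355 for *Smad7*. Both are commonly induced by the pathway itself as feedback, and neither gave a level that could be compared here.

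The genes of the set did not follow a common order over replicates of 1 genotype. Null replicates 2 and 3 were the highest of the null arrays for *Tgfb3*, *Fst* and *Grem1*, and null replicate 4 was the highest for *Tgfb2*, *Tgfbr2* and *Tgfbr3*. The mean log2 intensity of 24 splicing regulators was 10.04, 9.89, 9.80 and 10.04 on null replicates 1 to 4, against 10.52, 10.51, 10.31 and 10.55 on wildtype replicates 1 to 4, so that null replicates 2 and 3 and wildtype replicate 3 were the lowest of their genotypes. Without these 3 arrays the log2 difference was 1.32 for *Tgfb2*, 0.98 for *Tgfb3*, 0.91 for *Inhba* and -1.05 for *Tgfbr3*, and all 4 passed (adjusted p = 0.000798, 0.00685, 0.0108 and 0.00297, limma). With the splicing mean as a covariate, which does not overlap between the genotypes and so also takes up effects of genotype, *Tgfb2* kept its call (1.95, SE 0.33, adjusted p = 0.0184). *Tgfb3* (0.55, SE 0.39, adjusted p = 0.525), *Inhba* (0.59, SE 0.43, adjusted p = 0.539) and *Tgfbr3* (-0.72, SE 0.37, adjusted p = 0.373) did not pass in that limma fit, while 373 of all genes did.

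**Figure D2:**
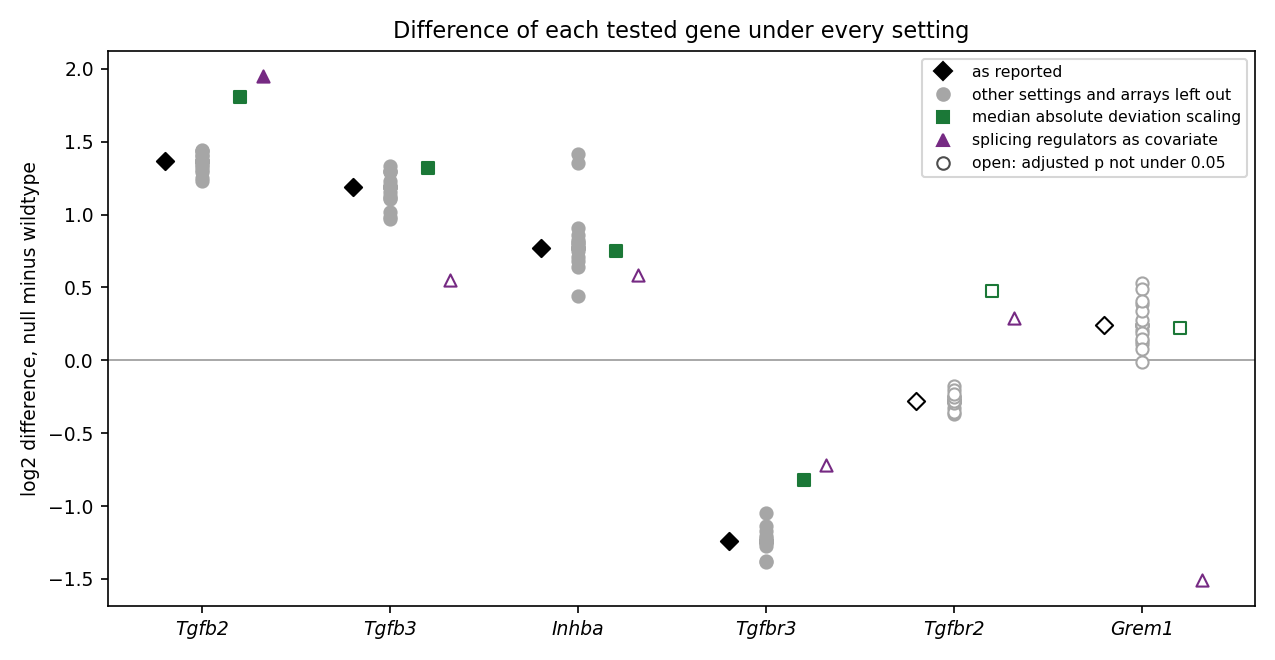
Log2 difference, null minus wildtype (y axis), of the 6 tested genes (x axis) as reported (black diamonds), under median absolute deviation scaling (green squares), with the splicing regulators as a covariate (purple triangles) and under all other settings and arrays left out (grey circles). Open symbols did not reach an adjusted p under 0.05 in limma; *Tgfb2* stays filled and above 1 in every setting, and *Tgfbr2* and *Grem1* cross 0.

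Beyond these 10 genes, a wider list of pathway genes was read by role. Of 104 such genes on the array 72 were tested, and 23 were higher, 22 lower and 27 did not pass in null cells, so that 62.5% differed, against 44.8% of all genes. Their median log2 difference was 0.05, against 0.09 for all genes. The counts, here and by role below, are to be read against 27% of all genes higher and 17.7% lower in null. They are descriptions, since the list was drawn up with earlier results of these data known. They include *Inha*, *Bmper* and *Fmod*, which passed the filter on dim probes through their null arrays, and *Rgmb*, which passed it through its wildtype arrays.

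**Figure D3:**
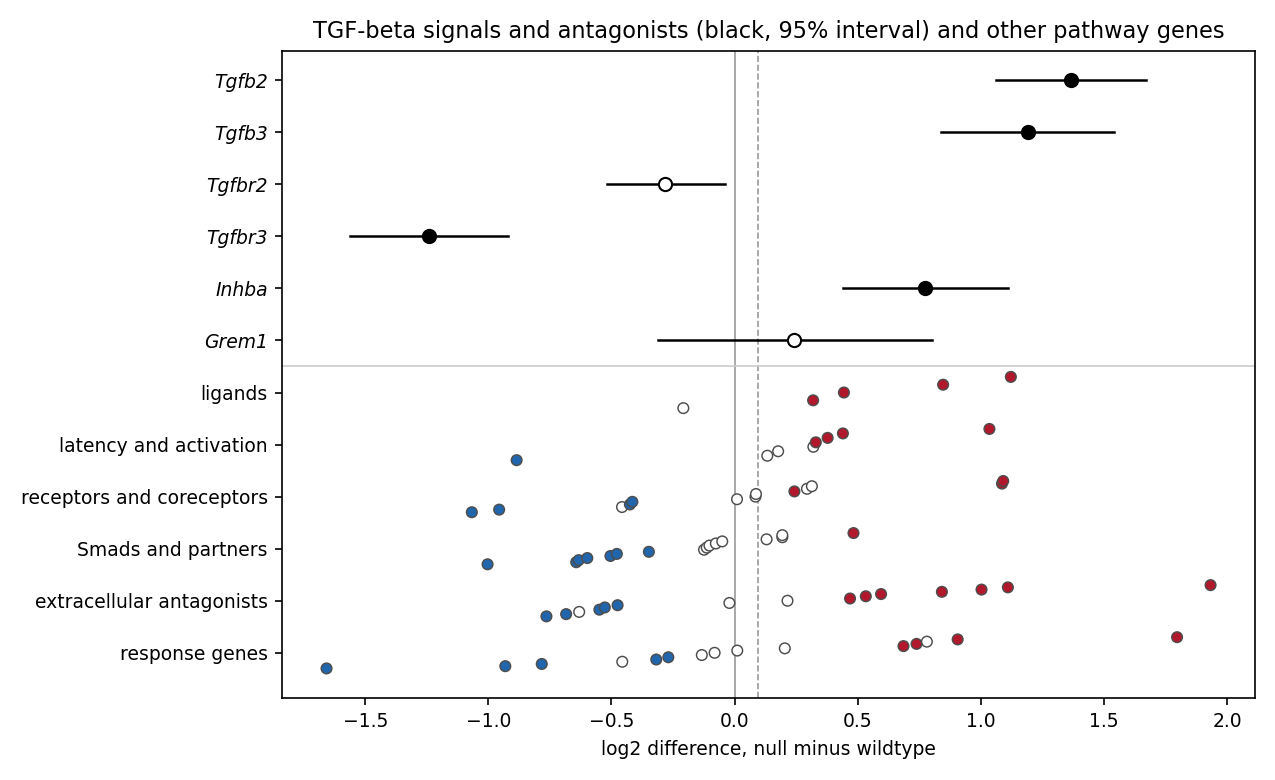
Log2 difference, null minus wildtype (x axis), of the 6 tested genes of the set (upper rows, black, with 95% intervals) and of 72 other pathway genes by role (lower rows, 1 point a gene). Red points were higher and blue points lower in null at an adjusted p under 0.05, open points did not pass, the solid line is 0 and the dashed line the median of all genes at 0.09; most ligands and latency genes lie to the right and most Smads and partners that passed to the left.

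Of the other ligands 5 were tested, and 4 were higher, none lower and 1 did not pass, with a median log2 difference of 0.44. *Gdf1*, a nodal partner in left-right patterning, had a log2 intensity of 9.54 ± 0.14 in null and 8.42 ± 0.05 in wildtype cells (SD, n = 4), a difference of 1.12 (adjusted p = 3.25e-05, limma). *Inha*, the inhibin alpha chain that pairs with the product of *Inhba*, was detected on 4 of 4 null and 0 of 4 wildtype arrays and was at least 1.22-fold higher in null. It entered the test, and so the count above, through its null arrays alone. *Gdf10* (log2 difference 0.85) and *Lefty1* (0.32), an inhibitor of nodal, passed with overlapping groups (adjusted p = 0.0362 and 0.0437, limma). *Gdf10* lost its call when any array other than null replicate 4 or wildtype replicate 4 was left out (0.63 to 0.90), and *Lefty1* when any array other than null replicate 2 or wildtype replicate 3 was (0.28 to 0.32). *Gdf10* also lost it with no background correction, in the test without moderated variances and without the 3 arrays low in splicing regulators (0.34, adjusted p = 0.355, limma), and *Lefty1* with an offset of 50, median centring, median absolute deviation scaling, the deposited value table and the test without moderated variances. *Gdf9* had a log2 difference of -0.21 and did not pass.

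Of 8 genes for the latent complex and its activation, 4 were higher, 1 was lower and 3 did not pass, with a median of 0.33. *Ltbp1*, which anchors latent TGF-beta in the matrix, had a log2 intensity of 9.19 ± 0.10 in null and 8.15 ± 0.20 in wildtype cells (SD, n = 4), a difference of 1.03 (adjusted p = 0.000192, limma), and kept its call under all 21 alternatives. *Emilin1*, a matrix protein that holds back the processing of the TGF-beta precursor, was lower, at 9.58 ± 0.09 in null and 10.47 ± 0.23 in wildtype cells, a difference of -0.89 (adjusted p = 0.000614), but did not pass with median absolute deviation scaling (-0.34, adjusted p = 0.196). *Ltbp3* was higher by 0.44 at its brightest probe (adjusted p = 0.00553) and had a difference of 0.00 at its other probe. It did not pass with median centring (0.31, adjusted p = 0.112) or with its probes averaged (0.22, adjusted p = 0.182), both in limma. The integrin chain *Itgav*, which activates latent TGF-beta, was higher by 0.38 at its brightest probe (adjusted p = 0.0235), with -0.84 (adjusted p = 0.0142) and 0.15 at its other probes, so that its direction rests on the probe chosen. The call of *Itgav* was lost without null replicate 3 (0.34), wildtype replicate 1 (0.34) or wildtype replicate 4 (0.30). It was also lost with median centring (0.22, adjusted p = 0.244), median absolute deviation scaling (0.615, adjusted p = 0.0506) and the deposited value table (0.40, adjusted p = 0.0543), all in limma. The protease *Mmp14* was higher by 0.33 (adjusted p = 0.034).

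Of 13 receptors and coreceptors, 3 were higher, 4 were lower and 6 did not pass, with a median of 0.09. The BMP coreceptor *Rgma* had a log2 intensity of 11.15 ± 0.06 in null and 10.06 ± 0.13 in wildtype cells (SD, n = 4), a difference of 1.09 (adjusted p = 3.82e-05, limma). Its relative *Rgmb* was lower, at 4.89 ± 0.27 in null cells, where 1 of 4 arrays detected it, and 5.95 ± 0.26 in wildtype cells, a difference of -1.07 (adjusted p = 0.00132). Its size moved with the background handling, to -0.59 with an offset of 50 and -2.57 with no correction. *Acvr2a*, a type II receptor for activin, was lower, with a log2 difference of -0.96 (adjusted p = 0.0031), and the type I BMP receptor *Bmpr1b* was higher at both probes, by 1.09 and 1.07 (adjusted p = 0.00329 and 0.00518). *Tgfbr1*, the type I partner of *Tgfbr2*, was lower, with a log2 difference of -0.43 (adjusted p = 0.0259).

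Of 16 Smads and partners, 1 was higher, 7 were lower and 8 did not pass, with a median of -0.12. None of *Smad1*, *Smad2* and *Smad3* passed, with log2 differences of -0.12, -0.11 and -0.05. *Smad5*, a Smad of the BMP branch, was lower at both probes, with differences of -0.60 and -0.91 (adjusted p = 0.00743 and 0.00644, limma). *Cited2*, a coactivator partner of Smads, had a log2 intensity of 9.93 ± 0.22 in null and 10.93 ± 0.09 in wildtype cells (SD, n = 4), a difference of -1.003 (adjusted p = 0.000274), and of -0.26 at its other probe (adjusted p = 0.246). The corepressor *Tgif1* was lower at both probes, with differences of -0.35 at the brightest and -1.58 at the other (adjusted p = 0.00751 and 0.000288), and *Nedd4l*, a ubiquitin ligase for activated Smads, was higher by 0.48 (adjusted p = 0.0104). With median absolute deviation scaling *Smad5* stood at 0.09 and *Tgif1* at 0.22, against a median of all genes of 0.43, and neither passed (adjusted p = 0.837 and 0.524), nor did *Cited2* at -0.40 (adjusted p = 0.289).

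Of 15 extracellular antagonists and binding proteins, 7 were higher, 5 were lower and 3 did not pass, with a median of 0.21. Among the 7, *Bmper* and *Fmod* were detected on 4 null arrays and 1 wildtype array each, so they entered the test through their null arrays. *Dcn*, the matrix proteoglycan decorin that binds TGF-beta, had a signal of 4221.4, 6684.4, 6118.3 and 4586 on null replicates 1 to 4, against 1698.4, 1496.4, 1461.7 and 1691.6 on wildtype replicates 1 to 4. Its log2 difference was 1.93 (SE 0.14, adjusted p = 1.73e-05, limma), and its other probes gave 2.02 and 1.26. The BMP antagonist *Chrd*, which encodes chordin, was at 8.46 ± 0.13 in null and 7.35 ± 0.06 in wildtype cells (SD, n = 4), a log2 difference of 1.11 (adjusted p = 3.31e-05). *Nbl1*, an antagonist of the same family as *Grem1*, was higher by 1.003 (adjusted p = 0.00029) and by 0.65 at its other probe. *Htra1*, a secreted protease that can cleave TGF-beta family proteins, was lower at both probes, with differences of -0.76 and -1.08 (adjusted p = 0.00131 and 0.000462).

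Of 15 genes commonly induced or repressed by the pathway, 4 were higher, 5 were lower and 6 did not pass, with a median of -0.08. *Acta2*, the smooth muscle actin, had a log2 intensity of 12.74 ± 0.58 in null and 10.94 ± 0.43 in wildtype cells (SD, n = 4), a difference of 1.80 (adjusted p = 0.00181, limma), with 1.88, 0.18 and 0.18 at its other probes, the last pair not passing. *Timp1*, an inhibitor of matrix proteases, was higher by 0.69 at both probes (adjusted p = 0.0026 and 0.00356). *Snai2*, a transcription factor of epithelial to mesenchymal transition, was lower with a log2 difference of -0.93 (adjusted p = 0.00105), which was -0.18 with median absolute deviation scaling and did not pass (adjusted p = 0.672). Also lower was the basic helix-loop-helix repressor *Bhlhe40* with -0.78 (adjusted p = 0.00224). *Tgfbi*, named for its induction by TGF-beta, was lower with a difference of -0.27 (adjusted p = 0.0359), and *Ccn2*, the connective tissue growth factor, was higher by 0.74 (adjusted p = 0.00289).

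Markers of some other cell types also moved with genotype, to be read against the 44.8% of all genes that differed and the 27% that were higher. Of 8 smooth muscle genes tested, *Acta2* among them, 6 were higher and none lower, and their mean log2 intensity ran from 9.23 to 10.14 on null arrays, against 8.13 to 8.64 on wildtype arrays. Among the 6, *Myh11* was detected on 4 null and 0 wildtype arrays, so it entered the count and the means through its null arrays alone. *Cnn1* was detected on 0 arrays and *Tagln* and *Lmod1* on at most 2, and these were not tested. Of 5 genes of pancreatic and gut epithelium 4 were higher and none lower, with means of 6.23 to 7.60 on null and 5.71 to 5.96 on wildtype arrays, while *Foxa2* was detected on 0 arrays and *Pdx1* on 1. Of 3 neural and neural crest genes 2 were higher and none lower (7.02 to 8.05 on null and 5.61 to 6.25 on wildtype arrays), with *Tubb3* detected on 0 arrays. None of 8 macrophage genes passed, and of 7 endothelial genes 1 was higher and 1 lower, with *Kdr* and *Tie1* detected on 0 arrays. Of 7 erythroid genes 1 was higher and none lower, with means of 5.53 to 9.05 on null and 5.55 to 7.20 on wildtype arrays, and the endothelial means were 5.23 to 7.49 on null and 5.49 to 6.70 on wildtype arrays. Null replicate 4 was the lowest null array in both lists: the embryonic globin *Hbb-bh1* was at 9.99, 10.67, 11.28 and 6.02 on null replicates 1 to 4, against 7.12, 6.07, 8.65 and 5.54 on wildtype replicates 1 to 4. Without null replicate 4 the log2 difference was 1.31 for *Tgfb2*, 1.30 for *Tgfb3*, 0.81 for *Inhba* and -1.38 for *Tgfbr3*, and all 4 passed. Of 4 megakaryocyte genes 1 was higher and 1 lower, and of 4 mesothelial genes 2 were higher and none lower. These 2, *Rspo1* and *Lrrn4*, were detected on 4 null arrays each and on 0 and 1 wildtype arrays, so they entered the test through their null arrays. The part of these cells in the differences of the TGF-beta genes was not tested.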

How the data were processed

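RNA of sorted cells was labelled with the TargetAmp-Nano kit and hybridized to MouseWG-6 v2.0 arrays. The deposited intensity values had been corrected for background by the authors with GenomeStudio and carried no scaling from array to array. The detection p-value columns that the authors deposited hold 1 minus the p, and were reversed. A second deposited table, used as an alternative, holds log2 signals (floored at 1) relative to the array median and to a reference level of each probe that the sources do not explain. No deposited column was left unmapped. Bead addresses were joined to probe names by their profile over the 8 arrays (tolerance 0.001). Of 45281 probes 34536 joined uniquely, among them all 19841 probes detected (p under 0.05) on at least 4 arrays, of which 16663 carry 1 gene symbol, 11 several and 3167 none.

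Signals were normalized by neqc (offset 16, quantile, log2) in limma 3.58.1 (statmod 1.5.0, R 4.3.3). The brightest kept probe stood for its gene. Genotype was fitted with lmFit and eBayes, null minus wildtype, two-sided, with Benjamini-Hochberg adjustment over all 10766 genes, and further probes of a gene in the same fit over all 19841 probes. Tested on simulated data, the fit found 32 of 67 genes set to a 1.5-fold change, 61 of 67 at 2-fold and 64 of 66 at 4-fold, and called 7 of 10566 left alone. The simulation drew noise independently for each gene and changed only these few genes. In the data 44.8% of genes were called and 1 shared component held 54.5% of the variation within genotypes. These rates therefore do not carry over to the data. The p-values measure the spread between these samples. No pair of arrays shared more than 0.521% of signals, so no array was a copy of another. That check cannot tell biological from technical replicates. The arrays were counted as separate samples because the paper describes 4 biological replicates for each genotype.

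The genes, the lists and the alternatives were chosen with earlier results of these data known. All 10 genes were named with every probe, and of the other pathway genes up to 4 per role with the largest absolute moderated t past the threshold. *Mmp14*, *Gdf9*, *Tgfbr1*, *Smad1*, *Smad2*, *Smad3*, *Tgfbi*, *Ccn2* and the markers were named after their values were seen. The 5 genes most like the gene with the largest absolute t were those with the smallest root mean square difference of array-centred values. Alternatives were the offset, the background correction, the scaling, the value table, the filter, the probe rule, a replicate block, a splicing covariate, the methods' ANOVA on genotype (with a pair of groups, a plain t-test), and arrays left out.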

Additional observations from a re-analysis of the deposited data

How the results depend on the processing

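Of the 6 tested genes, *Tgfb2* kept its direction and call under 21 of 21 alternatives, *Tgfb3* and *Tgfbr3* under 20 of 21 and *Inhba* under 19 of 20, the exception in each being the splicing covariate. Under that covariate 373 genes, 1 gene of the set (1 by probe) and 3 other pathway genes differed, against 4819, 4 (4 by probe) and 45 as reported. It turned *Tgfbr2* to 0.29, *Grem1* to -1.51 (adjusted p = 0.0527, limma), *Itgav* to -0.069, *Lefty1* to -0.076 and *Timp1* to -0.07. Of the 24 other pathway genes named by the rule, *Ltbp1* and *Rgma* passed under it and the others did not. Scaling by the median absolute deviation is also what the paper's methods name, though its steps may differ from those run here. With this scaling 26 other pathway genes differed, and *Tgfbr2* turned to 0.48, *Smad5* to 0.086 and *Tgif1* to 0.22. Of all genes 3134 were then higher and 517 lower, against 2909 and 1910 as reported. With median centring 1398 were higher and 2173 lower. Averaging all probes turned *Itgav* to -0.11, by its other probes. Without null replicates 2 and 3 and wildtype replicate 3, low in splicing regulators, *Grem1* stood at -0.009. Leaving out 1 array at a time gave 3373 to 5665 genes, 4 to 5 of the set (also by probe) and 33 to 47 other pathway genes. The cause of these shifts was not tested.

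The labels number replicates alike in both genotypes. Deviations of same-numbered arrays correlated at 0.12, 0.05, 0.32 and 0.38, and null replicate 1 correlated best with wildtype replicate 4, so the numbers were not read as pairs. With the replicate block 5043 genes differed, 5 of the set (5 by probe, *Tgfbr2* added at an adjusted p of 0.0354, limma) and 46 other pathway genes, and *Gdf10* lost its call (adjusted p = 0.0617, limma). Signal over background limits *Inhba*, *Inha*, *Rgmb*, *Grem1*, *Fst*, *Tgfb1*, *Bambi* and *Smad7*.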
